A study of Mus musculus with 22 samples.

Results

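Fatty acid uptake and binding was followed through 10 genes of the liver: *Cd36*, *Slc27a2*, *Slc27a4*, *Vldlr* and *Lpl*, which act at the cell surface or in the vessel, and *Fabp1*, *Fabp2*, *Fabp4*, *Fabp5* and *Dbi*, which bind fatty acids or their acyl-CoA esters inside the cell. They were chosen by symbol from the 55573 genes counted, and all 10 passed the filter of 10 counts per library on average, as did 14062 genes in total. The study asked how loss of *Flcn*, the gene of folliculin, in the liver alters the response to a methionine and choline deficient (MCD) diet, which is used to produce steatohepatitis. Messenger RNA was sequenced from 22 livers of C57BL/6 mice, 1 library per mouse, at 3 months of age. On chow with 10% of its energy as fat there were 6 Cre mice and 5 liver-*Flcn*-/- mice, called knockout mice from here on, and there were 5 Cre mice and 6 knockout mice on the MCD diet, which was given from 6 weeks of age for 6 weeks. The knockout mice were *Flcn* f/f with Albumin-Cre, and the Cre mice had wild-type *Flcn* and Albumin-cre+/-, so both carried a recombinase driven by the albumin promoter, which is active in hepatocytes and their precursors. Between 15276157 and 19417246 reads were counted on genes in Cre mice on chow, 13751347 to 19645473 in liver-*Flcn*-/- mice on chow, 18201287 to 21144388 in Cre mice given MCD and 16616132 to 20706657 in liver-*Flcn*-/- mice on MCD. Levels are given as CPM, the count divided by a library size scaled with the TMM method, and tests between groups are the two-sided quasi-likelihood test of edgeR with Benjamini-Hochberg adjustment over the 14062 genes, with a threshold of 0.05.

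The liver takes up non-esterified fatty acids from plasma and lipid from lipoprotein remnants. CD36 and the SLC27 proteins promote entry at the membrane, where the SLC27 proteins also activate the fatty acid to its CoA ester, and lipoprotein lipase, the product of *Lpl*, releases fatty acids from triglyceride in the vessel. The fatty acid binding proteins and the acyl-CoA binding protein, the product of *Dbi*, then carry the ligand through the cytosol. Several of these genes are known targets of the nuclear receptors PPAR alpha and PPAR gamma, and in the healthy adult liver *Fabp1* is the main binding protein while *Lpl* is low.

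The labels were first compared with the counts. *Flcn* had 24.2, 19.9, 16.7, 19.4 and 21.7 CPM in the knockout mice on chow, against 26.1 to 40.1 CPM (median 31.7) in Cre mice. The groups did not overlap, and *Flcn* was lower in knockout mice with a log2 fold change of −0.63 (SE 0.173, adjusted p = 0.025, edgeR). On MCD the Cre mice had 31.7, 18.2, 39.8, 32.4 and 23.6 CPM and the knockout mice 17.6 to 32.6 CPM (median 26.6), and the groups overlapped (log2 fold change −0.16, SE 0.17, adjusted p = 0.57, edgeR). The counts cover the whole gene and all liver cells. The call on chow was lost in edgeR without the 5 chow libraries with a uniquely mapped share under 75% (−0.55, adjusted p = 0.24), by library totals (−0.48, adjusted p = 0.067), when mouse numbers entered as a block (−0.57, adjusted p = 0.053), in females (−0.55, adjusted p = 0.15) and in males (−0.71, adjusted p = 0.10), while the sign was the same in each. Hepatocyte genes were abundant in every library, since 10 of them, with *Alb* the highest, summed to between 77787 and 181008 CPM.

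Libraries also differed in ways that the labels do not give. *Xist* had 222 to 417 CPM in 12 livers and at most 1.27 CPM in 10, in which transcripts of the Y chromosome summed to 136 to 236 CPM against at most 27.8 CPM in the former. The former are called female and the latter male here. Each group held 3 females, with 3 males among the Cre mice on chow, 2 among the knockout mice on chow, 2 among the Cre mice on MCD and 3 among the knockout mice on MCD. The 5 male livers on chow were the 5 chow libraries with a uniquely mapped share under 75%, so that on chow sex and library quality cannot be told apart. In Cre MCD mouse 3 the sum of 19 skeletal muscle genes was 3979 CPM, with *Myh1* the most abundant over all libraries, and the next highest library had 196.5 CPM. Counts that these libraries moved by more than 1.5 times are also given without them.

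Levels between genes were compared per length, as CPM per kb of the longest principal transcript. *Fabp1* was the highest of the 10 genes in every group, with 78.9% of their summed level in Cre mice on chow, 75.9% in knockout mice on chow, 56.9% in Cre mice given MCD and 66.0% in knockout mice on MCD. *Dbi* followed with 2304 CPM per kb in Cre mice on chow, and *Slc27a2*, which encodes a very long chain acyl-CoA synthetase and transporter, came next with 430 CPM per kb. The lowest was *Vldlr*, the receptor of very low density lipoprotein, in all 4 groups. *Cd36* ranked 6 of 10 on chow in both genotypes, 5 in Cre mice on MCD and 4 in knockout mice on MCD. *Cd36*, *Fabp4*, *Slc27a4* and *Lpl* lay close together in Cre mice on chow, *Cd36* at a mean of 12.5 CPM per kb (range 4.37 to 22.5, n = 6) and the others at 11.2 ± 2.14, 10.9 ± 0.294 and 7.51 ± 2.51 CPM per kb (SD, n = 6), and neighbours in that order overlapped in range. With the union of all annotated exons as the length, the first 3 places and the last were the same genes in every group, and the share of *Fabp1* in Cre mice on chow was 88.7%.

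**Figure D1:**
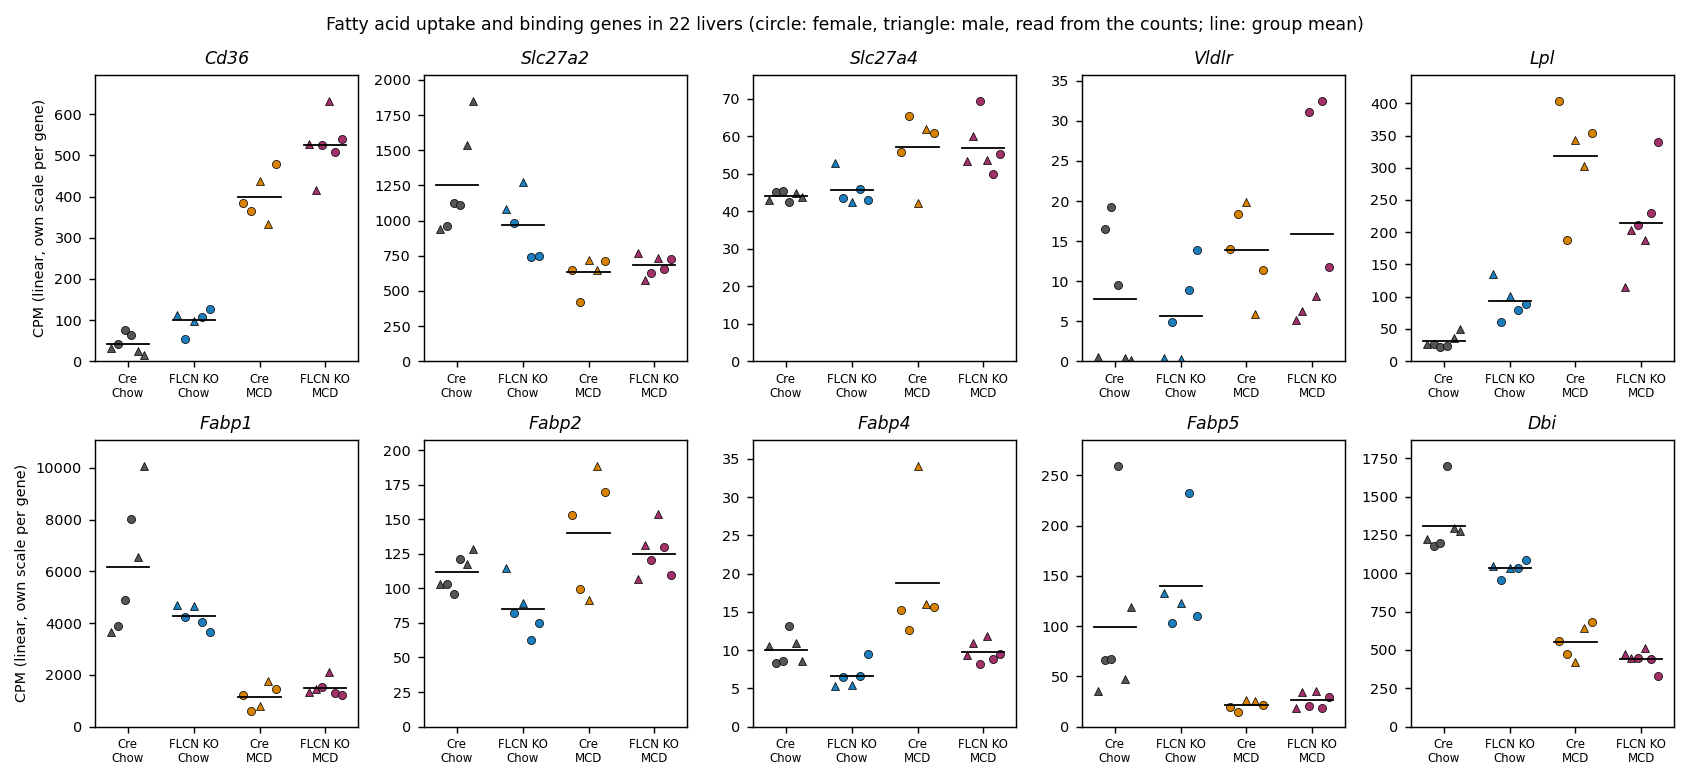
CPM of each of the 10 genes (linear axes, one scale per gene) in 22 livers by genotype and diet, with females as circles, males as triangles and the group mean as a line. *Cd36* in the 5 Cre mice on MCD (333 to 479 CPM) lies above all chow livers, *Fabp1* is lower on MCD in both genotypes, and the male chow livers have the lowest values of *Vldlr*.

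With the MCD diet most of the 10 genes changed in both genotypes. In Cre mice *Cd36*, *Lpl*, *Fabp4* and *Slc27a4* rose and *Fabp1*, *Fabp5*, *Dbi* and *Slc27a2* fell (adjusted p under 0.05, edgeR), while *Fabp2* and *Vldlr* did not pass the test. Among all genes tested 29.3% rose and 28.2% fell, so that 4 of 10 in either direction does not by itself set these genes apart. In knockout mice the same 8 genes and *Fabp2* passed, 5 higher and 4 lower, against 22.5% and 22.5% of all genes. The median log2 fold change of the 10 genes was 0.35 in Cre and 0.43 in knockout mice, beside 0.01 and 0.00 for all genes tested. Both genotypes were compared with their own chow group.

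*Cd36*, the scavenger receptor that promotes fatty acid entry, had 14.8 to 76.5 CPM (median 36.5) in Cre mice on chow and 385, 365, 439, 333 and 479 CPM on MCD. In knockout mice it had 113, 55.2, 96.9, 107 and 126 CPM on chow and 417 to 633 CPM (median 527) on MCD. Every MCD liver was above every chow liver. The rise was 9.44-fold in Cre mice (log2 fold change 3.24, SE 0.303, adjusted p = 1.6e-08, edgeR) and 5.27-fold in knockout mice (log2 fold change 2.40, SE 0.306, adjusted p = 2.1e-06, edgeR). The difference between these responses did not pass the test (−0.84, SE 0.403, adjusted p = 0.20, edgeR).

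*Lpl* had 22.1 to 49.7 CPM (median 26.9) in Cre mice on chow and 404, 189, 343, 303 and 353 CPM on MCD. In knockout mice it had 136, 61.5, 101, 79.5 and 88.9 CPM on chow and 116 to 340 CPM (median 208) on MCD. The groups were apart in Cre mice, but in knockout mice the lowest MCD liver lay below the highest chow liver. *Lpl* rose 10.3-fold in Cre mice (log2 fold change 3.37, SE 0.267, adjusted p = 1.6e-09, edgeR) and 2.30-fold in knockout mice (log2 fold change 1.20, SE 0.257, adjusted p = 0.00063, edgeR). Among male knockout mice the log2 fold change was 0.52 (adjusted p = 0.22, edgeR).

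*Fabp1*, the liver fatty acid binding protein, had 3640 to 10080 CPM (median 5712) in Cre mice on chow and 1233, 585, 791, 1757 and 1437 CPM on MCD. In knockout mice it had 4702, 4223, 4672, 4035 and 3665 CPM on chow and 1239 to 2125 CPM (median 1405) on MCD. Chow and MCD livers did not overlap in either genotype. The log2 fold changes were −2.41 (SE 0.281, adjusted p = 3.3e-07, edgeR) in Cre mice and −1.50 (SE 0.263, adjusted p = 8.8e-05, edgeR) in knockout mice, 5.32-fold and 2.84-fold lower. Of the 10 hepatocyte genes counted, 7 also fell in each genotype, beside 28.2% of all genes in Cre and 22.5% in knockout mice, and 1, *Ahsg*, rose in knockout mice (0.63, adjusted p = 0.00048, edgeR). Their sum went from 151400 ± 20043 CPM (SD, n = 6) to 107059 ± 16030 CPM (SD, n = 5) in Cre mice. The TMM factors were 0.816 to 0.889 in Cre mice on chow and 1.06 to 1.20 on MCD, and a larger factor gives a lower CPM. The size of this fall therefore depends on the scaling, and the sum by library totals is not given here. In whole liver, fewer cells of a type and less RNA per cell cannot be told apart.

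*Dbi* had 1176 to 1701 CPM (median 1250) in Cre mice on chow and 422 to 679 CPM on MCD, and in knockout mice 958 to 1084 CPM on chow and 333 to 511 CPM on MCD. It fell by 1.24 on the log2 scale in Cre mice (SE 0.129, adjusted p = 6.8e-08, edgeR) and by 1.22 in knockout mice (SE 0.125, adjusted p = 1.2e-07, edgeR), with no overlap between diets. *Fabp5*, the epidermal binding protein, had 35.7 to 259.5 CPM on chow and 14.2 to 26.8 CPM on MCD in Cre mice, and 103 to 232 CPM and 18.0 to 35.5 CPM in knockout mice. It too fell without overlap in both genotypes, by 2.22 (SE 0.404) and 2.43 (SE 0.389) on the log2 scale (adjusted p = 8.2e-05 and 3.2e-05, edgeR), although its spread on chow was wide. In male Cre mice alone the log2 fold change was −1.38 (adjusted p = 0.059, edgeR).

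*Slc27a2* had 943 to 1853 CPM on chow and 421 to 722 CPM on MCD in Cre mice and fell without overlap (log2 fold change −0.99, SE 0.184, adjusted p = 0.00011, edgeR). In knockout mice its ranges of 740 to 1274 CPM on chow and 574 to 767 CPM on MCD overlapped (log2 fold change −0.50, SE 0.18, adjusted p = 0.027, edgeR). That call was lost in females alone (−0.30, adjusted p = 0.29, edgeR), without the 5 male chow libraries (−0.28, adjusted p = 0.15, edgeR) and by library totals (−0.24, adjusted p = 0.24, edgeR). *Slc27a4*, a second member of the transporter family, moved less, from 42.4 to 45.3 CPM on chow to 42.1 to 65.4 CPM on MCD in Cre mice. Its log2 fold changes were 0.38 (SE 0.098, adjusted p = 0.0023, edgeR) and 0.32 (SE 0.098, adjusted p = 0.011, edgeR) in Cre and knockout mice, and neither passed in males alone (0.25, adjusted p = 0.20, and 0.22, adjusted p = 0.29, edgeR). *Fabp2*, the intestinal binding protein, had 95.6 to 128 CPM on chow and 91.3 to 189 CPM on MCD in Cre mice, which did not pass the test (log2 fold change 0.33, SE 0.17, adjusted p = 0.10, edgeR). In knockout mice it rose from 62.8 to 114 CPM to 107 to 154 CPM (log2 fold change 0.56, SE 0.172, adjusted p = 0.010, edgeR), and the response did not differ between genotypes past the threshold (0.23, adjusted p = 0.61, edgeR). The rise in knockout mice did not pass in males alone (0.36, adjusted p = 0.31, edgeR), and by library totals that in Cre mice did (0.75, adjusted p = 0.00044, edgeR). Of 10 enterocyte genes, *Cdx1*, *Cdx2*, *Sis* and *Alpi*, which define the cell type, had at most 3 counts in every library. Of the 4 tested, 3 rose and 1 fell with MCD in each genotype, where 29.3% and 28.2% of all genes rose and fell in Cre and 22.5% and 22.5% in knockout mice. *Vil1* rose by 2.60 and 3.14, *Treh* by 4.35 and 3.34 and *Apoa4*, the most abundant and also a liver gene, by 4.09 and 2.69 on the log2 scale, and *Mttp*, also a liver gene, fell by 1.02 and 0.68. Their sum over the 10 genes went from 781 to 1294 CPM on chow to 2642 to 14833 CPM on MCD in Cre mice and from 1214 to 2914 CPM to 6005 to 17543 CPM in knockout mice. Their part in the *Fabp2* result was not tested.

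In all, 2 of the 10 genes were higher and 4 lower on MCD without overlap in Cre mice, against 15.6% and 16.9% of all genes, and 1 was higher and 3 lower in knockout mice, against 14.4% and 14.8%. The exact permutation p of each of these was 0.00433, the smallest that 6 livers against 5 allow. It follows from the lack of overlap and adds nothing to it. Scaling by the library total alone moved the median log2 fold change of all genes to 0.43 in Cre and 0.27 in knockout mice and the numbers of genes higher and lower from 4121 and 3968 to 7896 and 1752 in Cre mice. No direction of the 10 genes with MCD changed under that scaling.

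**Figure D2:**
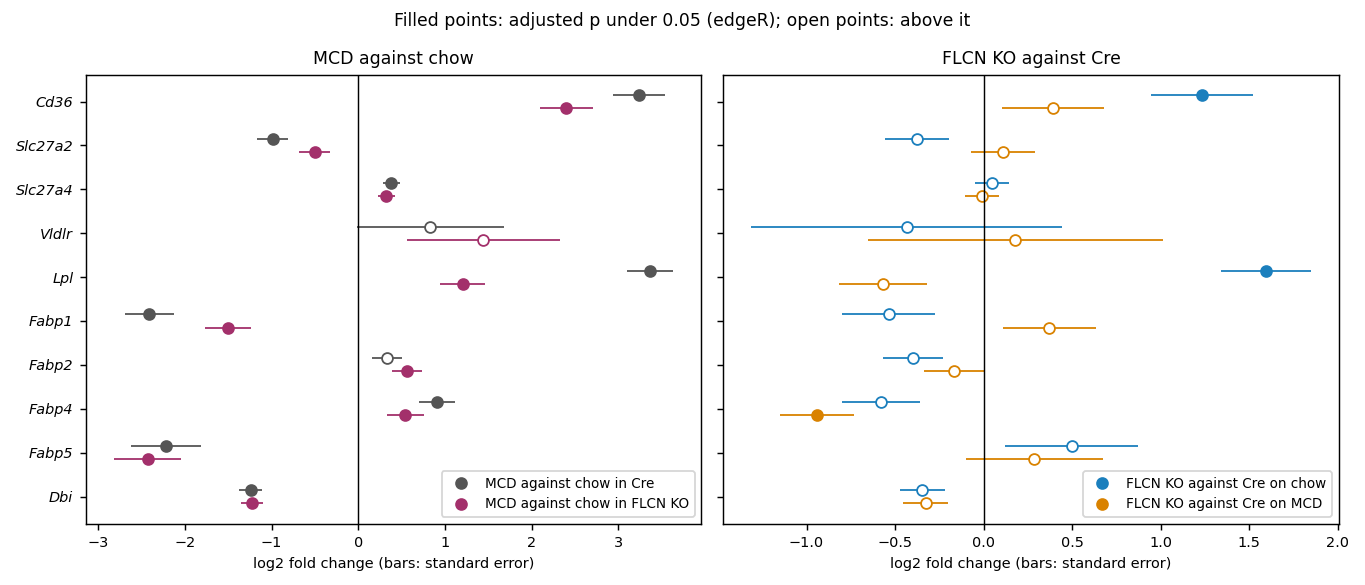
Log2 fold changes (points) with standard errors (bars) of the 10 genes for MCD against chow in each genotype (left) and for the knockout against the control on each diet (right), where filled points have an adjusted p under 0.05 in edgeR. *Lpl* is at 3.37 in Cre and 1.20 in knockout mice at left, and at 1.59 on chow and −0.57 on MCD at right.

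The genes that fell and those that rose were also compared in the sequence before their start. RefSeq holds a promoter window on GRCm38.p6 for 7 of the 10 genes, and the 250 bases before the start were searched on both strands for the nuclear receptor half-site AGGTCA, its direct repeat with a spacer of 1 base, the E-box CACGTG that TFEB and TFE3 read, and TATAAA, the TATA box. The half-site AGGTCA was present in *Cd36*, *Slc27a2* and, at 2 places, *Fabp1*, all on the minus strand of the gene, beside 14.0% of 32851 promoters. None of the 7 held an exact CACGTG (6.02% of all) or an exact repeat (0.0335% of all), and TATAAA stood in *Fabp1* alone (12.4% of all). Only exact matches were searched for. The *Fabp1* window holds TGACCTatggcct, which differs from the reverse complement of the repeat in 1 base. The whole *Slc27a2* window lay in or after the first annotated exon of that gene. So did the last 52 bases of the *Fabp1* window, which hold TATAAA and the half-site nearer the start. The windows of the gene with the largest fall in CPM and of the gene that rose most among those with a window are printed so far as they lie outside annotated exons, with the half-site in capitals as its reverse complement TGACCT. For *Fabp1* this is chr6:71199629-71199826 on the plus strand, with the half-site 67 to 62 bases before the RefSeq start, and for *Cd36* it is chr5:17835897-17836146 on the minus strand, with the half-site 228 to 223 bases before the start. The *Cd36* window lies inside the annotated gene, chr5:17781690-17888801, and the sequence before the outer end of that gene was not searched.
Fabp1: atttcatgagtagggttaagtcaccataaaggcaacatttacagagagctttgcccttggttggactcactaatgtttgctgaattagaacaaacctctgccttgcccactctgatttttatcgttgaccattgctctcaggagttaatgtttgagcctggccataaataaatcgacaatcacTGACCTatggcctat
Cd36: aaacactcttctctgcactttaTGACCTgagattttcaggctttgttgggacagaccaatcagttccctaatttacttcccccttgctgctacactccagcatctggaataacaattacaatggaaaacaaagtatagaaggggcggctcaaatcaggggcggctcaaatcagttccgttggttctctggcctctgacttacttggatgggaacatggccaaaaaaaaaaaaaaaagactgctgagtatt
A match is a description of the letters, and binding was not measured.

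Between genotypes on chow, *Lpl* and *Cd36* were higher in knockout than in Cre mice, and 8 of the 10 genes did not pass the test. Among all genes 5.52% were higher and 3.10% lower. *Lpl* was 3.02-fold higher (log2 fold change 1.59, SE 0.254, adjusted p = 0.00026, edgeR), and its lowest knockout liver, at 61.5 CPM, was above the highest control at 49.7 CPM. *Cd36* was 2.35-fold higher (log2 fold change 1.23, SE 0.287, adjusted p = 0.0086, edgeR), but the groups overlapped, since the Cre females had 42.0, 76.5 and 64.4 CPM. In females alone its log2 fold change was 0.66 (adjusted p = 0.22, edgeR), without the 5 male libraries 0.66 (adjusted p = 0.19, edgeR), and in males alone 2.14 (adjusted p = 0.00027, edgeR). The difference between the sexes did not pass the test (1.49, SE 0.417, adjusted p = 0.59, edgeR).

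None of the 5 binding proteins passed between genotypes on chow in edgeR, voom or DESeq2, and 3 had an unadjusted p under 0.05 in edgeR. *Dbi* was lower in every knockout liver than in every Cre liver, the only 1 of the 10 genes lower without overlap (2.93% of all genes, and 4.01% for higher, as *Lpl* was). Its log2 fold change was −0.35 (SE 0.126, adjusted p = 0.091, edgeR), which did not pass the test over all genes. Its exact permutation p of 0.00433 follows from the lack of overlap. That separation holds on the TMM scale. By library totals FLCN KO Chow mouse 5 lay above Cre Chow mice 1 and 2. Over the other alternatives the log2 fold change of *Dbi* was −0.41 to −0.20, with adjusted p from 0.053 to 0.52 (edgeR, voom or DESeq2). *Fabp1* (−0.54, adjusted p = 0.22), *Fabp2* (−0.40, adjusted p = 0.16), *Fabp4* (−0.58, adjusted p = 0.10) and *Fabp5* (0.50, adjusted p = 0.45) did not pass in edgeR either. Without Cre Chow mouse 4, whose *Fabp5* was 259.5 CPM, the *Fabp5* log2 fold change was 1.06 (adjusted p = 0.027, edgeR). Over the 10 genes the median log2 fold change was −0.36, beside −0.03 for all genes.

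On MCD the genotypes differed in *Fabp4*, the adipocyte and macrophage binding protein, alone among the 10 genes, where 8.06% of all genes were higher and 8.53% lower. The Cre mice had 15.3, 12.7, 34.1, 16.0 and 15.7 CPM and the knockout mice 8.15 to 11.9 CPM (median 9.37). The groups did not overlap, as for 3.53% of all genes in this direction (5.08% in the other, with none of the 10), and *Fabp4* was 1.92-fold lower in knockout mice (log2 fold change −0.94, SE 0.208, adjusted p = 0.0035, edgeR). Its highest value was in Cre MCD mouse 3, the library with skeletal muscle transcripts. Leaving out each mouse in turn gave log2 fold changes from −1.05 to −0.61 with adjusted p from 0.0016 to 0.010 (edgeR). Some markers of cell types that can express *Fabp4* also passed there, in both directions. For the Kupffer and liver endothelial lists below, the counts were near the shares of all genes (8.06% higher and 8.53% lower). Those counts do not set the 2 lists apart. Of 11 adipocyte genes, with *Car3* the most abundant over all libraries and *Pck1* on MCD, 4 were tested and 2 were lower in knockout mice on MCD, *Lipe* (−0.52, adjusted p = 0.019, edgeR) and *Pck1* (−0.85, adjusted p = 0.033, edgeR), both also expressed in hepatocytes. *Lep* and *Ucp1* of that list had at most 3 counts in every library. *Adipoq*, *Cfd* and *Plin1* reached at most 1.26, 3.60 and 0.468 CPM in any Cre MCD liver, each in Cre MCD mouse 3, which also had the highest *Fabp4*. The sum of the list was 1911, 1119, 3710, 2247 and 1555 CPM in the Cre mice, again highest in mouse 3, and 1236 to 1669 CPM in the knockout mice. Of 13 recruited macrophage genes 7 were lower, among them *Mmp12* (−1.80), *Itgax* (−1.63) and *Trem2* (−1.16), and 1 was higher, *Cd63* (mean 243 against 86.1 CPM, adjusted p = 0.0016, edgeR). Of 12 Kupffer cell genes 1 was lower, *Cd68* (−0.73, adjusted p = 0.0061, edgeR), and 1 higher, *Timd4* (0.94, adjusted p = 0.010, edgeR). Of 5 tested capillary endothelial genes 1 was lower, *Plvap* (−0.69, adjusted p = 0.00064, edgeR), and of 12 liver endothelial genes 1 was higher, *Stab2* (0.62, adjusted p = 0.0012, edgeR), and 1 lower, *Stab1* (−0.57, adjusted p = 0.0049, edgeR). The sum of the 7 capillary genes listed, with *Aqp1* the most abundant, was 151 to 196 CPM in Cre and 127 to 151 CPM in knockout mice. The part of these cell types in the *Fabp4* result was not tested. With MCD *Fabp4* rose in Cre mice (log2 fold change 0.90, SE 0.21, adjusted p = 0.00094, edgeR) and narrowly passed in knockout mice (0.54, SE 0.217, adjusted p = 0.046, edgeR), a call that was lost when any of 12 of the 22 mice was left out. In females alone neither rise passed (0.53, adjusted p = 0.062, and 0.22, adjusted p = 0.48, edgeR).

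On MCD no other gene of the 10 passed between genotypes in the edgeR fit of the 4 groups. When mouse numbers entered as a block *Lpl* passed (adjusted p = 0.027, edgeR). *Dbi* passed in DESeq2 (adjusted p = 0.045), and *Cd36* in a fit of only the groups compared (adjusted p = 0.045, edgeR). *Cd36* had a log2 fold change of 0.39 (95% interval −0.17 to 0.95, adjusted p = 0.39, edgeR) and *Lpl* of −0.57 (95% interval −1.06 to −0.08, adjusted p = 0.13, edgeR). *Dbi* had −0.33 (95% interval −0.57 to −0.08, adjusted p = 0.078, edgeR). *Fabp1* was on average 1160 ± 476 CPM (SD, n = 5) in Cre and 1502 ± 325 CPM (SD, n = 6) in knockout mice (log2 fold change 0.37, adjusted p = 0.37, edgeR). The median log2 fold change of the 10 genes was 0.05, beside −0.01 for all genes.

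The response of *Lpl* to MCD differed between genotypes, the only 1 of the 10 genes for which the interaction of genotype and diet passed the test, where 3.29% of all genes were higher and 5.54% lower. The log2 fold change with MCD was 2.16 smaller in knockout than in Cre mice (interaction −2.16, SE 0.355, adjusted p = 0.0012, edgeR). Leaving out each mouse in turn gave −2.35 to −1.99, and the other alternatives gave −2.58 to −1.94 with adjusted p of at most 0.0071. *Fabp1* (0.91, SE 0.372, adjusted p = 0.13, edgeR) and *Slc27a2* (0.49, SE 0.256, adjusted p = 0.25, edgeR) did not pass.

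Genes listed for recruited macrophages, a cell type that can express *Lpl*, changed as well. All 13 listed were tested, and 13 rose with MCD in Cre mice and 8 in knockout mice, where 29.3% and 22.5% of all genes rose. Between genotypes 6 were higher in knockout mice on chow (5.52% of all genes), 1 higher and 7 lower on MCD (8.06% and 8.53%), and 8 had a smaller response to MCD (5.54%; median interaction −1.87). Without the 5 male chow libraries 3 were higher on chow (2.62% of all genes) and 5 had a smaller response (3.29%). With all libraries the 6 higher on chow were *Cd63*, *Spp1*, *Gpnmb*, *Cd9*, *Trem2* and *Mmp12*. *Ccr2*, *Ly6c2*, *Itgax*, *Ms4a7*, *S100a4*, *Chil3* and *Lgals3* did not pass there (edgeR). *Spp1* was also listed as a bile duct marker, and which cells expressed these genes was not tested. *Mmp12*, a macrophage elastase, had an interaction of −3.71 (SE 0.656, adjusted p = 0.0021, edgeR), and *Gpnmb* of −2.95 (SE 0.824, adjusted p = 0.029, edgeR). Their summed level was 56.0 to 104.5 CPM in Cre mice on chow, 183, 126, 213, 218 and 282 CPM in knockout mice on chow, 618, 454, 729, 686 and 589 CPM in Cre mice given MCD and 425 to 810 CPM in knockout mice on MCD. *Cd63*, the most abundant over all libraries and in knockout mice on MCD, had a mean of 4.23, 54.3, 86.1 and 243 CPM in these groups, and *Spp1*, the most abundant on chow, 44.4, 102, 117 and 91.5 CPM. On MCD the sums of the 2 genotypes overlapped, although 7 of the genes were lower in knockout mice. None of the 13 was at 3 counts or fewer in every library. Of 11 stellate cell genes, with *Dcn* the most abundant, 9 rose with MCD in Cre mice and 1 in knockout mice, 8 were lower in knockout mice on MCD, and 6 had a smaller response. The stellate sum was highest in Cre MCD mouse 3, at 943 CPM, and without that mouse 8 rose in Cre mice, 5 were lower in knockout mice on MCD (8.38% of all genes) and 5 had a smaller response. The part of either cell type in the *Lpl* result was not tested.

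*Vldlr* separated by sex on chow and not by genotype. In Cre mice on chow the 3 males had 0.474, 0.405 and 0.16 CPM and the 3 females 16.6, 19.2 and 9.54 CPM, and in knockout mice the 2 males had 0.466 and 0.335 CPM and the 3 females 4.87, 8.87 and 13.9 CPM. On MCD the males had 19.9 and 5.96 CPM in Cre mice and 5.12, 6.28 and 8.10 CPM in knockout mice, and the females 14.1, 18.3 and 11.4 CPM and 31.1, 32.5 and 11.8 CPM. Every male on chow was below every other liver. In a fit with sex as part of the group, made after these values were seen, *Vldlr* was lower in males than in females on chow (log2 difference −4.96, SE 0.509, adjusted p = 1.4e-06, edgeR), where 6.46% of all genes were lower and 5.38% higher. On MCD the difference was −1.06 (SE 0.323, adjusted p = 0.18, edgeR), with 0.178% of all genes lower and 0.256% higher.

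*Vldlr* rose with MCD 24.2-fold in males over both genotypes (log2 fold change 4.60, SE 0.520, adjusted p = 8.8e-07, edgeR), where 26.0% of all genes rose. In females, where 28.7% of all genes rose, its log2 fold change of 0.70 did not pass (SE 0.299, adjusted p = 0.054, edgeR). The response differed between the sexes by 3.90 (SE 0.621, adjusted p = 0.00087, edgeR), as it did upward for 4.88% of all genes. Without sex in the model the response was 0.83 (SE 0.846, adjusted p = 0.42, edgeR) in Cre mice and 1.44 (SE 0.879, adjusted p = 0.19, edgeR) in knockout mice. *Vldlr* had 2 to 6 counts in each male liver on chow, all 5 of which had a low uniquely mapped share, and sex and that share cannot be told apart there. Among the male livers on MCD, Cre MCD mouse 3, the library with skeletal muscle transcripts, had 19.9 CPM and the others 5.12 to 8.10 CPM. The male fold without that mouse is not given. No other of the 10 genes differed between the sexes past the threshold on either diet. The nearest on chow were *Lpl* (0.63, adjusted p = 0.052, edgeR), *Slc27a2* (0.48, adjusted p = 0.057, edgeR) and *Cd36* (−0.62, adjusted p = 0.065, edgeR).

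**Figure D3:**
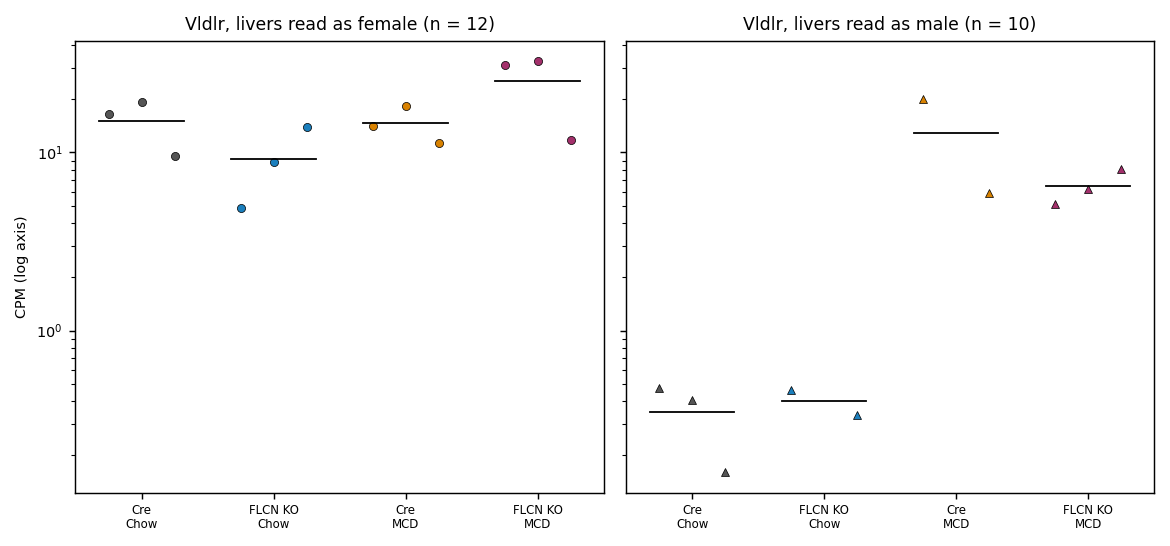
*Vldlr* in CPM (log axis) by genotype and diet in 12 livers read as female (left) and 10 read as male (right) from *Xist* and Y-linked transcripts, with the mean as a line. The 5 male chow livers lie between 0.16 and 0.474 CPM and the male MCD livers between 5.12 and 19.9 CPM.

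Over both diets, 3 of the 10 genes differed between genotypes in females, where 5.02% of all genes were higher and 3.05% lower. These were *Lpl* (log2 fold change 0.69, SE 0.194, adjusted p = 0.032, edgeR), which averages 1.66 on chow (adjusted p = 0.0016) and −0.28 on MCD (adjusted p = 0.56), *Dbi* (−0.44, SE 0.122, adjusted p = 0.030, edgeR) and *Fabp4* (−0.57, SE 0.166, adjusted p = 0.040, edgeR). In males, where 5.97% of all genes were higher and 4.53% lower, *Cd36* was higher (1.30, SE 0.223, adjusted p = 0.00082, edgeR), which averages 2.14 on chow (adjusted p = 0.00027) and 0.45 on MCD (adjusted p = 0.41), and *Fabp4* lower (−1.06, SE 0.189, adjusted p = 0.0011, edgeR) in knockout mice. A gene that passed in 1 sex was not thereby shown to differ between them.

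Relatives of the binding proteins were examined next. Of 20 listed, 12 were tested, and with MCD 5 rose and 6 fell in Cre mice, 4 rose and 6 fell in knockout mice, where 29.3% and 28.2% of all genes rose and fell in Cre and 22.5% and 22.5% in knockout mice. In knockout mice 3 were higher and 2 lower on chow (5.52% and 3.10% of all genes), 1 higher and 3 lower on MCD (8.06% and 8.53%), and 2 had a smaller response to MCD (5.54%). Without Cre MCD mouse 3 the counts with MCD in Cre mice were 4 and 5. *Fabp3*, the heart and muscle member of the family, had 0 to 2 counts in each Cre liver on chow and 7.46, 2.55, 3.62, 3.30 and 2.69 CPM in knockout mice on chow (adjusted p = 0.0087, edgeR). On MCD it had 12.4 to 19.2 CPM in knockout mice, and in Cre mice 15.0 CPM in mouse 3, the library with muscle transcripts, and at most 0.581 CPM in the others. *Gltp*, a glycolipid transfer protein, rose with MCD in both genotypes, by 1.62 and 0.98 on the log2 scale.

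Of 19 tested genes of fatty acid transport and activation, 5 rose and 9 fell in Cre mice on MCD and 5 rose and 10 fell in knockout mice, beside 29.3% and 28.2% of all genes in Cre and 22.5% and 22.5% in knockout mice. The medians were −0.76 and −0.70, beside 0.01 and 0.00 for all genes. Without the 5 male chow libraries 3 rose in knockout mice. *Slc27a5*, the bile acid and very long chain CoA ligase of the same family as *Slc27a2*, went from 1257 ± 153 CPM (SD, n = 6) to 192 ± 50.8 CPM (SD, n = 5) in Cre mice (log2 fold change −2.71, SE 0.162, edgeR) and fell by 2.20 in knockout mice. *Acss2*, which activates acetate, fell by 3.80 and 3.44. *Mfsd2a*, a lysophospholipid transporter, was lower in knockout mice on chow (−1.35, SE 0.316, edgeR) and on MCD (−1.94, SE 0.306, edgeR), while *Acsm3*, a medium-chain acyl-CoA synthetase, was higher on MCD (1.26, SE 0.169, edgeR). Each of these had an adjusted p under 0.05.

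Of 27 tested lipases, their cofactors and lipoprotein receptors, 6 rose and 10 fell in Cre mice and 3 rose and 11 fell in knockout mice, with the same shares of all genes as above. Between genotypes on chow, where 5.52% of all genes were higher and 3.10% lower, the smallest adjusted p of the 27 was 0.063 (edgeR). In contrast to *Lpl*, hepatic lipase (*Lipc*) fell by 2.41 in Cre and 2.01 in knockout mice on the log2 scale, and *Lmf1*, which matures both lipases, fell by 1.82 and 1.17. *Apoc2*, the cofactor of lipoprotein lipase, rose by 1.90 and 1.07. On MCD 1 was higher and 6 lower in knockout mice (8.06% and 8.53% of all genes), among them endothelial lipase *Lipg* (−1.07, SE 0.244, adjusted p under 0.05 in edgeR).

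Among 24 regulators 4 rose and 11 fell in Cre mice and 3 rose and 8 fell in knockout mice, again beside 29.3% and 28.2% of all genes in Cre and 22.5% and 22.5% in knockout mice. *Pparg* rose from 7.38 ± 3.06 to 18.1 ± 4.83 CPM (SD, n = 6 and 5) in Cre mice, by 1.29 on the log2 scale, and by 1.00 in knockout mice, while *Srebf1*, a driver of lipid synthesis, fell by 1.54 and 1.77. Of 32 targets of PPAR alpha, 12 rose and 5 fell in Cre mice and 16 rose and 2 fell in knockout mice, with *Cyp4a31* up by 5.24 and 5.71 and *Acot2* up by 3.31 and 2.79, although *Fabp1* and *Slc27a2*, also known targets, fell. Of 11 tested targets of PPAR gamma and genes of lipid droplets and steatosis, 6 rose in each genotype and 4 and 2 fell. Without the 5 male chow libraries 2 of these 11 fell in Cre mice. *Cidec* and *Plin4*, which coat lipid droplets, rose in Cre mice by 6.81 and 3.60. In knockout mice *Cidec* rose by 4.47 (interaction −2.34, adjusted p = 0.042, edgeR). *Plin4* was higher in knockout mice on chow by 4.85 (SE 0.29), where it had 29.1 to 86.3 CPM against at most 2.41 CPM in Cre mice. *Scd1*, the stearoyl-CoA desaturase, fell, with log2 fold changes of −6.42 and −6.13. All had an adjusted p under 0.05 in edgeR.

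**Figure D4:**
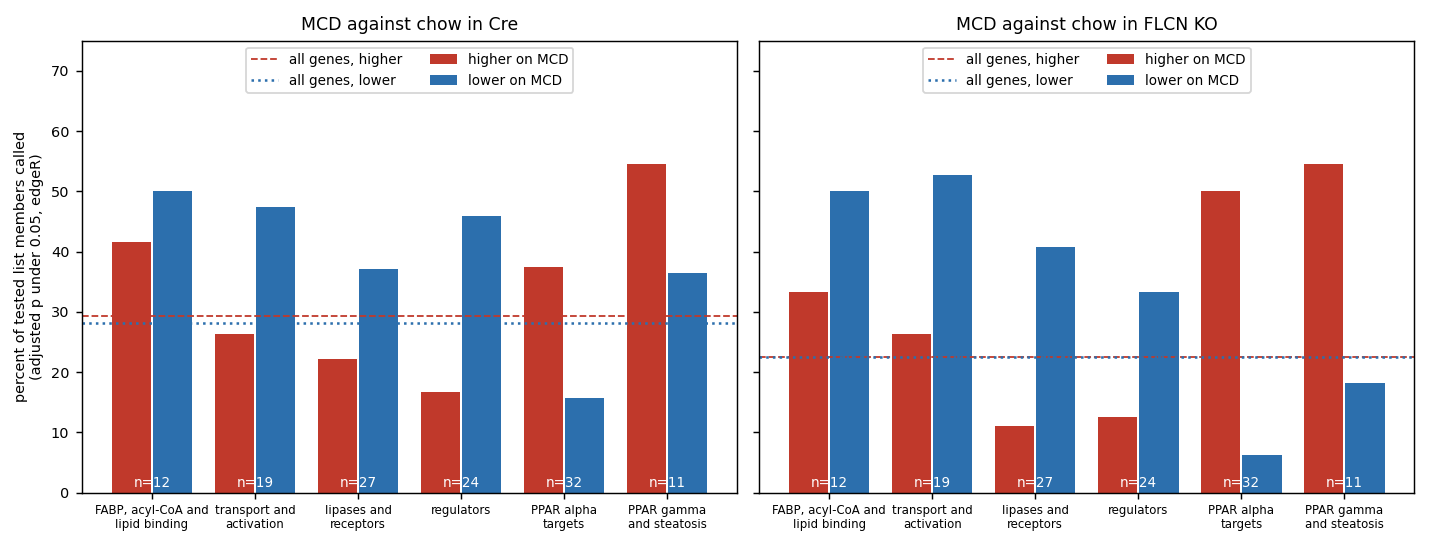
Percent of the tested genes of 6 lists (n in each bar pair) that were higher or lower with MCD in Cre (left) and knockout mice (right) at an adjusted p under 0.05 in edgeR, with the share of all tested genes as dashed (higher) and dotted (lower) lines. Among the PPAR alpha targets 12 of 32 were higher in Cre and 16 of 32 in knockout mice, and among transport and activation genes 9 and 10 of 19 were lower.

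Finally, the genes whose levels followed each of the 10 most closely from liver to liver were listed, after subtraction of group means, over 22 libraries that share their depth and their sex between genes. The nearest to *Vldlr* were *Cyp3a41a* (r = 0.954), *Hao2* (0.948) and *Cyp2b13* (0.946), and after removal of sex as well these were 0.42, 0.453 and 0.0897. The nearest to *Slc27a2* was *Fam126b* (0.918), followed by *Cpt1a* (0.9), the gate of mitochondrial fatty acid entry, and these kept 0.911 and 0.91 after removal of sex. *Cd36* was nearest to *Morc4* (0.877) and *Gpat3* (0.861), an enzyme of triglyceride synthesis, *Fabp1* to *Dek* (0.863) and *Lpl* to *Enpp2* (0.751). Within the 10 genes the highest correlations were *Fabp1* with *Fabp2* (0.772) and with *Dbi* (0.677), and the lowest was *Fabp4* with *Slc27a4* (−0.688). In Cre MCD mouse 3 *Fabp4* was the highest of its group (34.1 CPM) and *Slc27a4* the lowest (42.1 CPM). The correlation without that mouse is not given.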

How the data were processed

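Total RNA of whole liver was made into mRNA libraries and sequenced as single-end reads. The authors trimmed the reads with Trimmomatic, aligned them to GRCm38 with STAR and deposited HTSeq counts, whole numbers of reads per gene without normalization. The annotation release, the versions and a step that collapses the ligated molecular identifiers are not given in the sources used here, so the counts were treated as reads. All columns of the table were matched to sample labels. Each replicate is 1 mouse, and p-values measure the spread between mice.

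Counts were analysed in R 4.3.3 with edgeR 4.0.16 (mean count of at least 10, TMM factors, 1 quasi-likelihood fit of the 4 groups, a threshold of 0.05). Single genes were also compared on log2 CPM (prior count 2) by an exact permutation test, two-sided, in scipy 1.17.1. The study's methods use limma, which was run as an alternative because the files hold counts. Further alternatives were DESeq2 1.42.0, RLE factors, library totals alone, other count filters, fits of only the groups compared, sex as a covariate, the replicate number as a block, leaving out each mouse in turn and leaving out the 5 chow libraries with a uniquely mapped share under 75% in the study's library statistics. Fits within each sex, the union exon length and the list counts without Cre MCD mouse 3 or the 5 chow libraries were added after the data were seen. On simulated counts of 14062 genes the fit recovered 73, 80, 76, 70 and 54% of changes of 1 on the log2 scale for MCD in Cre mice, MCD in liver-*Flcn*-/- mice, genotype on chow, genotype on MCD and the interaction, and 93, 93, 98, 95 and 83% of changes of 2.

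Transcript lengths and positions are from GENCODE M21 (GRCm38), and promoter windows from RefSeq on GRCm38.p6. The per-length scale uses the longest principal transcript, chosen after the union of exons had been computed. The 10 genes, the lists and the marker genes were chosen with earlier results of these data known. Named are the 10 genes and *Flcn*, from each list up to 4 genes per comparison with the largest change among those with an adjusted p under 0.05 and a mean of at least 1 CPM, the most abundant and the absent genes of each cell type list, and the 3 nearest genes by correlation. *Mmp12*, *Gpnmb*, *Itgax*, *Trem2*, *Cd9*, *Ccr2*, *Ly6c2*, *Ms4a7*, *S100a4*, *Chil3*, *Lgals3*, *Cd68*, *Plvap*, *Adipoq*, *Cfd*, *Plin1*, *Lipe*, *Pck1*, *Vil1*, *Treh*, *Mttp*, *Timd4*, *Stab1*, *Stab2*, *Spp1* and *Ahsg* were named after their values were seen. Some genes that this rule selects are not reported here. The reads and the study's other experiments were not analysed here.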

Additional observations from a re-analysis of the deposited data

Results flagged for a closer look

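Single livers stood apart from their group in 7 of the 44 groups of values examined, where the gap of the highest or lowest liver to its neighbour, as a share of the group's range, was above Dixon's 95% critical value. By construction chance flags about 1 in 20 such groups, and since the 44 groups share 22 livers the number is no test. *Fabp1* was highest in FLCN KO MCD mouse 4, with 2125 CPM. *Fabp4* was highest in FLCN KO Chow mouse 5, with 9.47 CPM, and in Cre MCD mouse 3, with 34.1 CPM, the library with 3979 CPM of skeletal muscle genes. *Fabp5* was highest in Cre Chow mouse 4, with 259.5 CPM, and in FLCN KO Chow mouse 4, with 232 CPM. *Dbi* was also highest in Cre Chow mouse 4, with 1701 CPM. *Slc27a2* was lowest in Cre MCD mouse 2, with 421 CPM.

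The response to MCD differed between groups for 2 of the 10 genes. That of *Lpl* was smaller in liver-*Flcn*-/- than in Cre mice by 2.16 on the log2 scale (interaction −2.16, adjusted p = 0.0012, edgeR). That of *Vldlr* was larger in males than in females by 3.90 (adjusted p = 0.00087, edgeR), where sex was read from the counts.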

How the results depend on the processing

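With the replicate number as a block, 2 of the 10 genes were lower in liver-*Flcn*-/- mice on MCD in place of 1 (*Lpl* −0.71, adjusted p = 0.027, edgeR). Among all 14062 genes 894 were then lower, in place of 1199. *Slc27a4* between genotypes on MCD turned to 0.000548. The block left each other count of the 10 genes within 1.5 times. Same-numbered mice had mean correlations of −0.0842, −0.0112, 0.0614 and 0.129 in the 4 pairs of groups, and the lowest pair was below 0.1 in each, so the numbers do not pair the mice. DESeq2 also gave 2 lower on MCD (*Dbi*, adjusted p = 0.045), beside 1360 of 14062 genes. Fitting only the groups compared gave 1 higher on chow and 1 higher on MCD (*Cd36*, adjusted p = 0.057 and 0.045, edgeR). In those fits 746 and 1008 of 14062 genes were higher. On chow 1 was higher without the 5 male libraries (374 of 14271 genes tested) and 1 within females (452 of 14062). Within males 3 rose with MCD in liver-*Flcn*-/- mice (1958 of 14062). Leaving out each mouse gave 4 to 5 higher and 4 lower with MCD in Cre mice (3854 to 4151 and 3677 to 4067). In liver-*Flcn*-/- mice it gave 4 to 5 and 3 to 4 (2763 to 3292 and 2850 to 3313). Between genotypes it gave 2 to 3 and 0 to 1 on chow (499 to 883 and 170 to 553). On MCD these were 0 and 1 to 2 (886 to 1207 and 849 to 1259). The interaction had 0 and 1 (272 to 577 and 528 to 877). Values in brackets are counts among all 13958 to 14122 genes tested.

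Signs turned only for values that had not passed the test. *Vldlr* with MCD in Cre mice was −0.12 without the 5 libraries and −0.0494 in females. Between genotypes it was 0.16 by voom and 0.18 in males on chow, and −0.13 by voom, −0.21 with sex as covariate and −0.99 in males on MCD, and its interaction −0.28 by voom and −1.17 in males. *Flcn* with MCD in Cre mice was 0.30 by library totals and 0.11 in males, and between genotypes on MCD 0.24 in females. *Slc27a4* between genotypes on chow was −0.00503 without the 5 libraries and −0.00262 in females, and on MCD 0.000346 by voom, 0.00194 without a filter and 0.0954 in males. The *Fabp5* interaction was 0.11 without the 5 libraries and 0.13 in females, and that of *Dbi* −0.13 by library totals, −0.0189 with a mean count of 50 and −0.0782 in females. Leaving out each mouse in turn gave −0.26 to 0.0129 for *Flcn* with MCD in Cre mice, −0.0112 to 0.0752 for *Slc27a4* and −1.07 to 0.0622 for *Vldlr* between genotypes on chow, and −0.00564 to 0.16 for *Slc27a2*, −0.10 to 0.0445 for *Slc27a4* and −0.16 to 0.36 for *Vldlr* on MCD. Interactions ranged from −0.77 to 0.0492 for *Fabp5*, −0.15 to 0.00365 for *Slc27a4* and −0.0702 to 0.0882 for *Dbi*. The causes were not tested. The lowest total was 13751347 reads, at which 2 to 6 counts of *Vldlr* in male chow livers limit its fold.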
